A study of Homo sapiens with 6 samples.

Results

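The mitochondrial genome carries 37 genes in the count table, chosen as the rows whose symbol begins with MT-, out of 58336 genes in all. They are 13 mRNAs, 2 rRNAs and 22 tRNAs, and the GENCODE 29 annotation places every one, as a single exon without introns, on the mitochondrial chromosome of GRCh38. They were measured by RNA sequencing in H1299, an established human lung carcinoma line. The mock group holds 3 libraries of cells with a mock vector, named PLVT7_MOCK in the labels, and the knockdown group 3 libraries named PLVT7_CCNB1, in which cyclin B1 was targeted by an shRNA, a short hairpin RNA. Both groups were labelled as the same line, with stable transfectants selected in 1 µg/ml puromycin from post-confluent cultures at 14 days and growth in 10% serum, and the mock libraries carry the genotype label WT. The labels name a single hairpin construct and do not say whether the transfectants were clones or pools, or whether each library had its own culture. A p-value here is therefore set by the spread among libraries, and that spread could be technical.

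Mitochondrial DNA encodes core subunits of the respiratory chain complexes I, III and IV and of the ATP synthase, complex V, together with the rRNAs and tRNAs with which the organelle translates them. Both strands are transcribed by the polymerase POLRMT with TFAM and TFB2M into long precursors, and most mRNAs and the rRNAs are released by cutting out the tRNAs that lie between them. Most mitochondrial mRNAs then receive short poly(A) tails, which complete the stop codon of several of them. The complex of LRPPRC and SLIRP stabilises many mitochondrial mRNAs. Carcinoma cells use the chain for respiration and for making precursors of growth, and every other subunit of the chain is encoded in the nucleus.

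Of the 37 genes, 28 lie on the plus strand and 9 on the minus strand, which are MT-ND6 and 8 tRNAs. A set of 3 tRNA genes, all on the minus strand, held most of the tRNA counts and are shown because the tRNA results rest on them. MT-TN, the tRNA for asparagine, is at chrM:5657-5729, MT-TC, for cysteine, at chrM:5761-5826, and MT-TP, for proline, at chrM:15956-16023. MT-TY, for tyrosine, at chrM:5826-5891 on the minus strand, shares 1 base with MT-TC, and MT-TK, for lysine, at chrM:8295-8364 on the plus strand, is shown because its groups did not overlap. The sequences are those of the GENCODE 29 transcripts on GRCh38, written as DNA from 5′ to 3′, with the anticodon in capitals.
MT-TN: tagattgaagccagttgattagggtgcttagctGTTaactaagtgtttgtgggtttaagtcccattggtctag
MT-TC: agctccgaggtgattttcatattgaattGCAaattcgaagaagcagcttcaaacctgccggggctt
MT-TP: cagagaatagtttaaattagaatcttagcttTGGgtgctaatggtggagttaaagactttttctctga
MT-TY: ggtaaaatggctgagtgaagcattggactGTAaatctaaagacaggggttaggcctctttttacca
MT-TK: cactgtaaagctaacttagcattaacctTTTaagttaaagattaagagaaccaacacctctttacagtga

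Of the 13 mRNAs, 6 end inside a codon in the annotation, so that the tail must supply the rest of the stop codon, and 7 end on a complete one. The last 20 bases of 4 mRNAs show both kinds, with the leftover bases after the last full codon in capitals for MT-ND1 (chrM:4243-4262, plus strand) and MT-ND2 (chrM:5492-5511, plus strand) and the stop codon in capitals for MT-CO1 (chrM:7426-7445, plus strand) and MT-ND6 (chrM:14149-14168, minus strand).
MT-ND1: agcattccccctcaaaccTA
MT-ND2: ttttatactaataatcttaT
MT-CO1: ccgtatacataaaatctAGA
MT-ND6: agattgctcgggggaatAGG

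Overlaps of more than 1 base between mRNA genes occur in 2 pairs in the annotation, which matters for counting. Their shared bases are in capitals with flanking sequence in lower case. MT-ATP6 and MT-CO3 share 1 base, chrM:9207, and are not shown here. MT-ATP8 and MT-ATP6 share 46 bases within chrM:8512-8587, and MT-ND4L and MT-ND4 share 7 bases within chrM:10745-10781, all on the plus strand.
MT-ATP8 and MT-ATP6: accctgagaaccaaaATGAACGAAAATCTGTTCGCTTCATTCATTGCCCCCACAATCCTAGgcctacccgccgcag
MT-ND4L and MT-ND4: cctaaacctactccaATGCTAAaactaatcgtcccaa

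The libraries held between 28122665 and 30332989 counts each, and 3 counts corresponded to 0.0940 to 0.106 CPM, the count relative to library size after TMM scaling, in the usual unit for RNA-seq levels. The CCNB1 transcript checked the labels, at 323, 305 and 294 CPM in mock libraries 1, 2 and 3 and at 19.9, 29.9 and 16.1 CPM in knockdown libraries 1, 2 and 3, and by edgeR's quasi-likelihood test it fell by 3.81 on the log2 scale (adjusted p = 0.000215). Knockdown library 2 stood apart from its group. Over all genes its counts differed from those of knockdown libraries 1 and 3 with chi-square values of 73.8 and 67.2 for each degree of freedom, and from those of the 3 mock libraries by 25.2 to 29.9, while the mock libraries differed from each other by 12.8 to 27.5. Counts of calls, class medians and class ratios of the mitochondrial transcripts are therefore given with and without knockdown library 2. Of the markers of lung adenocarcinoma lineage, NKX2-1, NAPSA, SFTPB and SFTPC, none reached 1 CPM in any library, and of the epithelial markers CDH1 and EPCAM lay below 0.5 CPM, KRT19 lay below 0.7 CPM, and KRT8 and KRT18 lay between 292 and 931 CPM. KRT8 was at 356, 309 and 343 CPM in mock and at 794, 456 and 931 CPM in knockdown libraries 1, 2 and 3. KRT18 was at 329, 293 and 292 CPM in mock and at 596, 379 and 715 CPM in the knockdown. KRT19 went the other way, on few counts. It was at 0.528, 0.670 and 0.485 CPM in mock and at 0.0627, 0.318 and 0.235 CPM in the knockdown. The immune markers PTPRC and CD3E had 0 counts in every library, CD68 stayed below 0.3 CPM, and the fibroblast and endothelial markers reached at most 2.16 CPM. The mesenchymal marker VIM was at 3181, 3283 and 3145 CPM in mock and 1741, 3331 and 1878 CPM in knockdown libraries 1, 2 and 3. Of the other mesenchymal markers, ZEB1 was at 70.7, 76.97 and 75.3 CPM in mock and 60.2, 76.6 and 57.2 CPM in the knockdown. FN1 was at 73.8, 60.6 and 49.4 CPM in mock and 36.5, 77.6 and 46.04 CPM in the knockdown. CDH2 was at 50.4, 48.8 and 47.6 CPM in mock and 47.5, 54.7 and 52.1 CPM in the knockdown. KRT8, KRT18, KRT19, VIM and ZEB1 in knockdown library 2 thus lay nearer to mock than in knockdown libraries 1 and 3, as most mitochondrial mRNAs did. CDH2 in knockdown library 2 lay further from the mock mean than in knockdown libraries 1 and 3. FN1 in knockdown library 2 lay nearer to the mock mean than in knockdown library 1 but not than in knockdown library 3. The part of these markers in the results was not tested.

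Transcripts of the mitochondrial genome took 2.18%, 2.07% and 1.79% of all counts in mock libraries 1, 2 and 3, and 2.29%, 2.14% and 2.77% in knockdown libraries 1, 2 and 3. Knockdown libraries 1 and 3 lay above all 3 mock libraries, and knockdown library 2 lay between mock libraries 1 and 2, so the groups overlapped. The means were 2.01% ± 0.204 (SD, n = 3) in mock and 2.40% ± 0.333 (SD, n = 3) in knockdown. The difference of 0.38 percentage points was 0.51 without knockdown library 2 and 0.20 without knockdown library 3. The mRNAs made up 73.4% to 82.0% of the mitochondrial counts over the 6 libraries, the rRNAs 17.2% to 25.8% and the tRNAs 0.736% to 0.826%. The widest Wilson 95% interval on any of these class shares in a library was 0.238 percentage points, and intervals of this kind cover counting error only. In bulk RNA, a change in genome copies per cell, in transcripts per copy or in the share of cells of a type cannot be told apart.

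Of the 37 transcripts, 32 passed the filter on low counts and were tested, which were the 13 mRNAs, the 2 rRNAs and 17 tRNAs. By edgeR's quasi-likelihood test none passed the threshold of 0.05 on the adjusted p, over 17349 genes of which 0.0231% passed, all 4 of them lower, and the lowest adjusted p among the mitochondrial transcripts was 0.25. DESeq2 gave an adjusted p for 30 of the 37 and called 0 of these, against 3.46% of all genes for which it gave one. At an unadjusted p of 0.05 there were 3, all higher in the knockdown, MT-ND6, MT-TK and MT-TG by edgeR's test, beside 8.14% of all genes tested that were higher at that level. Of the 32 tested, 28 had a log2 fold change above 0, against 53.3% of all genes. They share the same libraries, so these signs are not separate observations. MT-TK was the 1 tested mitochondrial transcript whose knockdown libraries all lay above the mock libraries. That pattern was held by 10.9% of all genes, and 19.7% had groups that did not overlap in either direction. MT-TK passed the filter on low counts through its knockdown libraries, so its lack of overlap is no support for a difference.

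Without knockdown library 2, 33 mitochondrial transcripts were tested and 6 passed in edgeR's quasi-likelihood test, all higher, where 6.24% of 17750 genes tested passed in that direction and 13.8% in either. They were the complex I mRNAs MT-ND2, MT-ND3 and MT-ND6, the complex III mRNA MT-CYB, and the tRNAs MT-TC and MT-TY. Leaving out any other single library gave 0. MT-ND2 was higher by a log2 fold change of 0.61 (adjusted p = 0.0206), MT-ND3 by 0.74 (adjusted p = 0.0298), MT-ND6 by 0.46 (adjusted p = 0.0221) and MT-CYB by 0.52 (adjusted p = 0.0474) in that edgeR fit. The tRNAs MT-TC and MT-TY were higher by 0.55 (adjusted p = 0.011) and 0.71 (adjusted p = 0.025). That fit compares 2 knockdown libraries with 3 mock libraries, and the calls rest on leaving out the library that stood apart.

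**Figure D1:**
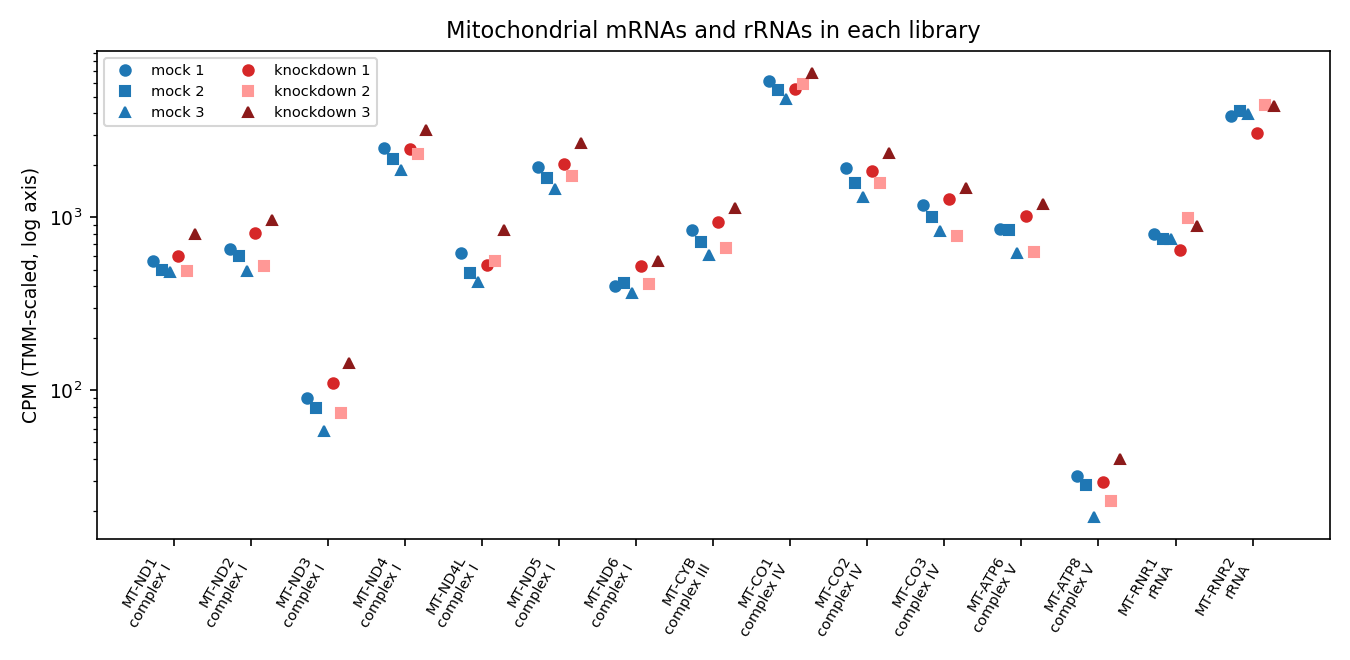
CPM on TMM-scaled libraries (log axis) of the 13 mitochondrial mRNAs, with their complex, and of the 2 rRNAs, with 1 point per library. For every mRNA the highest point is knockdown library 3, and for 12 of 13 knockdown library 2 lies within the range of the mock libraries.

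The plot of CPM by library shows the order of the libraries for each mRNA, in which the top and bottom places were shared and the middle places were not. Knockdown library 3 was the highest of the 6 for all 13 mRNAs. Mock library 3 was the lowest of the 6 for 12 mRNAs, and knockdown library 2 was for MT-CO3. Mock library 1 was the highest mock library for 12 mRNAs and mock library 3 the lowest mock library for 13. Knockdown library 1 exceeded all mock libraries for 8 mRNAs and lay below mock library 1 for the others.

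Complex I, the NADH dehydrogenase, takes 7 of the mRNAs, and their median log2 fold change was 0.34. MT-ND1 (ENSG00000198888, chrM:3307-4262), which encodes a membrane subunit next to the quinone site, was at 561, 497 and 482 CPM in mock libraries 1, 2 and 3 and at 602, 492 and 804 CPM in the knockdown (log2 fold change 0.30, SE 0.18, adjusted p = 0.453 in edgeR's test). MT-ND2 (ENSG00000198763, chrM:4470-5511), which encodes a proton-pumping subunit, was at 657, 598 and 493 CPM in mock and at 815, 526 and 971 CPM in the knockdown (0.40, SE 0.21, adjusted p = 0.402). In both, knockdown libraries 1 and 3 lay above the mock libraries, and knockdown library 2 lay at the mock level. MT-ND3 (ENSG00000198840, chrM:10059-10404), a small membrane subunit, was at 90.6, 79.2 and 57.8 CPM in mock and at 109.8, 73.9 and 144 CPM in the knockdown, the largest log2 fold change of an mRNA (0.53, SE 0.24, adjusted p = 0.341).

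MT-ND4 (ENSG00000198886, chrM:10760-12137), another proton-pumping subunit, was at 2513, 2174 and 1877 CPM in mock and at 2499, 2336 and 3190.4 CPM in the knockdown (log2 fold change 0.29, SE 0.16, adjusted p = 0.424 in edgeR's test). MT-ND4L (ENSG00000212907, chrM:10470-10766), the small subunit whose gene overlaps it, was at 622, 477 and 421 CPM in mock and at 534, 558 and 850.1 CPM in the knockdown (0.35, SE 0.21, adjusted p = 0.451). For both, knockdown library 3 alone lay above the mock range, and knockdown libraries 1 and 2 lay inside it. MT-ND5 (ENSG00000198786, chrM:12337-14148), the largest proton-pumping subunit, was at 1971, 1701 and 1457 CPM in mock and at 2043, 1744 and 2693 CPM in the knockdown (0.34, SE 0.18, adjusted p = 0.409), with knockdown library 1 just above the mock libraries.

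MT-ND6 (ENSG00000198695, chrM:14149-14673) encodes the complex I subunit that lies on the other strand, and it is the one mRNA of the minus-strand precursor. It was at 399.7, 417 and 367 CPM in mock and at 522, 414 and 562 CPM in the knockdown (log2 fold change 0.34, SE 0.14, adjusted p = 0.308 in edgeR's test). Knockdown libraries 1 and 3 lay well above the mock libraries and knockdown library 2 lay just under the highest of them. Relative to the summed counts of the 12 plus-strand mRNAs, MT-ND6 had a log2 ratio of -5.45, -5.19 and -5.15 in mock and of -5.05, -5.21 and -5.27 in the knockdown, so the groups overlapped and the means differed by 0.08. Without a stated strand setting, reads of MT-ND6 cannot be told apart from reads of the opposite strand.

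Complex III has MT-CYB (ENSG00000198727, chrM:14747-15887), cytochrome b, as its mitochondrial subunit. It was at 842, 723 and 607 CPM in mock and at 944, 665 and 1131 CPM in the knockdown (log2 fold change 0.34, SE 0.20, adjusted p = 0.459 in edgeR's test). Knockdown libraries 1 and 3 lay above the mock libraries and knockdown library 2 lay inside their range.

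Complex IV, cytochrome c oxidase, has 3 mitochondrial subunits that form its catalytic core, and their median log2 fold change was 0.23. MT-CO1 (ENSG00000198804, chrM:5904-7445), which holds the oxygen-reducing centre, was at 6156, 5462 and 4848 CPM in mock and at 5545, 5909 and 6859 CPM in the knockdown, the smallest log2 fold change of an mRNA (0.15, SE 0.14, adjusted p = 0.631 in edgeR's test). MT-CO2 (ENSG00000198712, chrM:7586-8269), which takes electrons from cytochrome c, was at 1931, 1583 and 1315 CPM in mock and at 1864, 1586 and 2364 CPM in the knockdown (0.27, SE 0.18, adjusted p = 0.524). For these genes, knockdown library 3 alone lay above the mock range. MT-CO3 (ENSG00000198938, chrM:9207-9990) was at 1183, 1003 and 840.3 CPM in mock and at 1282, 784 and 1485 CPM in the knockdown (0.23, SE 0.22, adjusted p = 0.655), and it was the one mRNA with knockdown library 2 below all mock libraries.

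Complex V takes MT-ATP6 and MT-ATP8, membrane subunits of the ATP synthase encoded by overlapping genes, with a median log2 fold change of 0.26. MT-ATP6 (ENSG00000198899, chrM:8527-9207), which lines the proton channel, was at 859.9, 844 and 622 CPM in mock and at 1025, 632 and 1198 CPM in the knockdown (log2 fold change 0.30, SE 0.23, adjusted p = 0.566 in edgeR's test). MT-ATP8 (ENSG00000228253, chrM:8366-8572) was at 31.9, 28.5 and 18.5 CPM in mock and at 29.4, 23.0 and 39.9 CPM in the knockdown (0.23, SE 0.24, adjusted p = 0.684). For MT-ATP6 knockdown libraries 1 and 3 lay above the mock range, and for MT-ATP8 knockdown library 3 did. Without knockdown library 3 the log2 fold change of MT-ATP8 was -0.01.

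**Figure D2:**
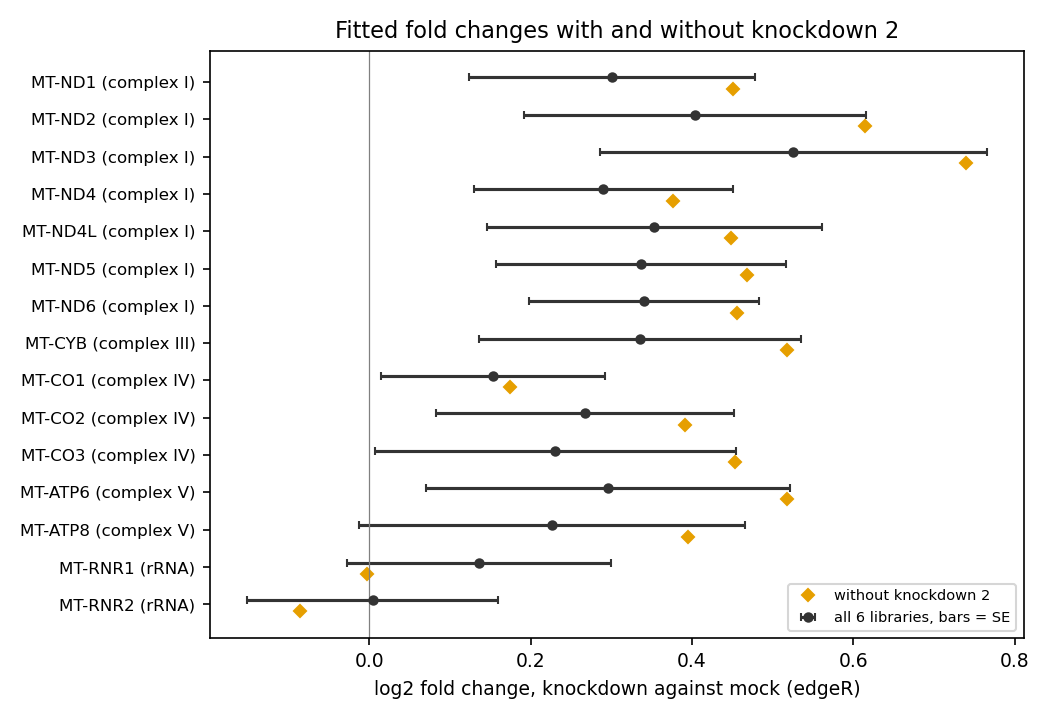
Fitted log2 fold changes of knockdown against mock for the 13 mRNAs and 2 rRNAs in edgeR, from all 6 libraries (points, with bars of 1 SE) and without knockdown library 2 (diamonds). All 13 mRNA points lie above 0, from 0.15 to 0.53, and move further up without knockdown library 2, whereas both rRNAs move to or below 0.

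In the plot of fitted fold changes the 13 mRNAs had log2 fold changes from 0.15 to 0.53, with a median of 0.30 beside 0.02 over all genes tested. All 13 lie on 2 precursors and share libraries, so their common sign is not 13 separate observations. The median was 0.45 without knockdown library 2 and 0.10 without knockdown library 3, the ends of its range when each library was left out in turn. Across the 13 mRNAs, Spearman's rho of the log2 fold change was -0.17 with length, -0.396 with GC content and -0.385 with the mean FPKM in mock, as a description over genes that share the same libraries.

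The split of mRNA counts between complexes was compared within each library. Complex IV mRNAs made up 52.0%, 51.6% and 52.2% of mitochondrial mRNA counts in mock libraries 1, 2 and 3 and 48.8%, 52.6% and 48.0% in knockdown libraries 1, 2 and 3. Complex I mRNAs made up 38.2%, 38.1% and 38.5% in mock and 40.0%, 39.0% and 41.3% in the knockdown, and the widest Wilson 95% interval on these shares was 0.314 percentage points. The complex I shares of all 3 knockdown libraries lay above those of mock, whereas the complex IV shares overlapped. Complex III took 4.73%, 4.64% and 4.53% in mock and 5.30%, 4.22% and 5.07% in the knockdown, and complex V took 5.00%, 5.60% and 4.78% in mock and 5.92%, 4.16% and 5.55% in the knockdown. For both, knockdown library 2 was the lowest of the 6 libraries and knockdown library 1 the highest. The log2 ratio of complex IV to complex I counts was 0.44, 0.44 and 0.44 in mock and 0.29, 0.43 and 0.22 in the knockdown. The groups did not overlap, but knockdown library 2, at 0.43, lay just below mock library 2, the lowest mock value at 0.4372. No counting error was computed for this ratio. The ratio is a score over genes chosen for description, and it was given no test.

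Within complex IV, the log2 ratio of MT-CO3 to MT-CO1 counts was -2.38, -2.45 and -2.53 in mock and -2.11, -2.91 and -2.21 in knockdown libraries 1, 2 and 3. Knockdown libraries 1 and 3 lay above the mock libraries and knockdown library 2 below them. The log2 ratio of MT-ND2 to MT-CO1 counts fell out the same way, at -3.23, -3.19 and -3.30 in mock and -2.77, -3.49 and -2.82 in the knockdown. The 3 knockdown libraries thus spread more widely than the mock libraries, with SDs of 0.44 and 0.40 on these ratios against 0.07 and 0.06.

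The rRNAs did not follow the order of the mRNAs. MT-RNR2 (ENSG00000210082, chrM:1671-3229), the 16S rRNA of the large mitochondrial ribosomal subunit, was at 3882, 4107 and 3961 CPM in mock and at 3085, 4471 and 4431 CPM in knockdown libraries 1, 2 and 3 (log2 fold change 0.00, SE 0.16, adjusted p = 0.992 in edgeR's test). MT-RNR1 (ENSG00000211459, chrM:648-1601), the 12S rRNA of the small subunit, was at 807, 747 and 753 CPM in mock and at 645, 998 and 892 CPM in the knockdown (0.14, SE 0.16, adjusted p = 0.723). Both were lowest in knockdown library 1, where 8 mRNAs lay above all mock libraries, and highest in knockdown library 2. Their mock libraries lay close together, with SDs of 114 and 32.9 CPM, against 789 and 181 CPM in the knockdown. The sign of MT-RNR2 turned with the scaling, from 0.00 by TMM to -0.01 with DESeq2's size factors in the same fit and -0.03 in DESeq2, so no direction is given for it. The median of both rRNAs was 0.07, -0.04 without knockdown library 2, 0.20 without knockdown library 1 and 0.01 without knockdown library 3.

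**Figure D3:**
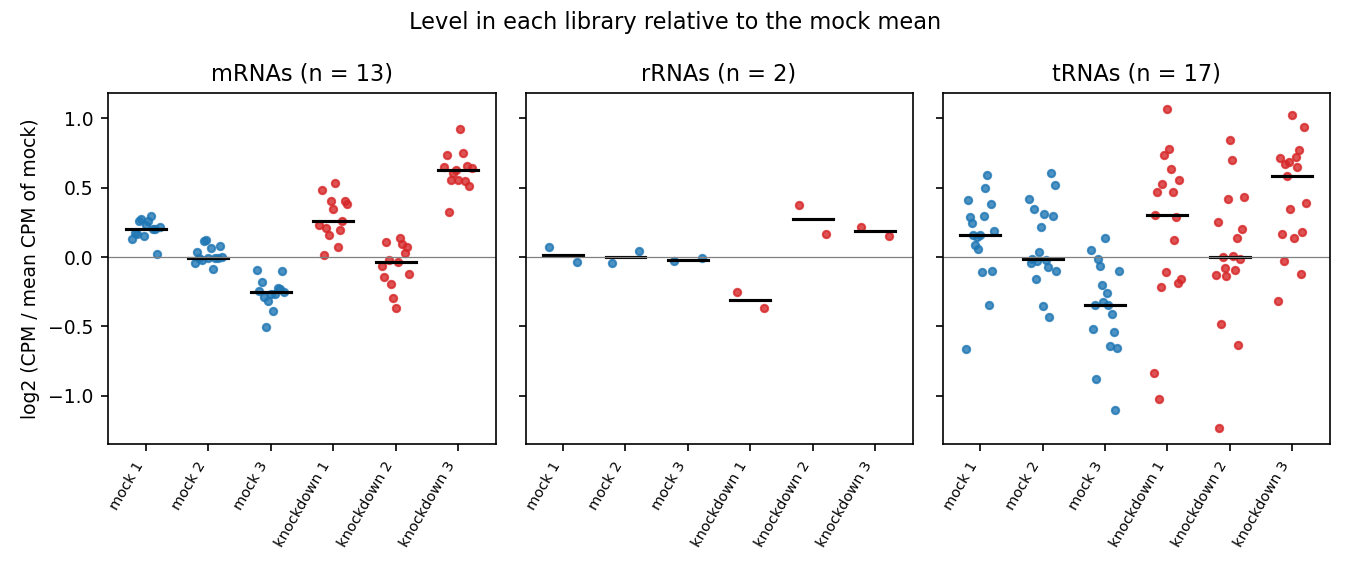
The log2 ratio of each transcript's CPM to its mean in the mock libraries, by library, for the 13 mRNAs, the 2 rRNAs and the 17 tested tRNAs, with 1 point per transcript and a bar at the median. The mRNA medians are 0.26, -0.04 and 0.63 in knockdown libraries 1, 2 and 3, whereas the rRNA medians are -0.31, 0.27 and 0.18.

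The plot of levels relative to the mock mean sets the classes side by side. The median over the mRNAs was 0.21, -0.01 and -0.25 in mock libraries 1, 2 and 3 and 0.26, -0.04 and 0.63 in the knockdown libraries. The median over the rRNAs was 0.02, 0.00 and -0.02 in mock and -0.31, 0.27 and 0.18 in the knockdown, and that over the 17 tested tRNAs was 0.16, -0.01 and -0.35 in mock and 0.30, 0.00 and 0.58 in the knockdown. The tRNA medians thus followed nearly the library order of the mRNA medians, and the rRNA medians another. A median gives tRNAs with few counts the same weight as the others. The summed tRNA CPM had another order, with knockdown library 1 (174) below mock library 1 (178) and knockdown library 2 (176). Single tRNAs varied more, with knockdown library 3 highest for 7 of the 17 and mock library 3 lowest for 8. The median of all genes stayed within 0.01 of 0 in every library.

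The log2 ratio of summed rRNA to summed mRNA counts, which needs no scaling between libraries, was -1.93, -1.68 and -1.51 in mock libraries 1, 2 and 3 and -2.26, -1.53 and -2.07 in knockdown libraries 1, 2 and 3. Knockdown libraries 1 and 3 lay below the mock libraries and knockdown library 2 inside their range, so the groups overlapped. The means were -1.71 ± 0.21 (SD, n = 3) and -1.95 ± 0.38 (SD, n = 3), a difference of -0.24. It was -0.46 without knockdown library 2, -0.09 without knockdown library 1 and -0.14 without mock library 3. On the deposited FPKM, which divides by gene length, the difference was -0.25. The log2 ratio of MT-RNR2 to MT-RNR1 counts was 2.27, 2.46 and 2.40 in mock and 2.26, 2.16 and 2.31 in the knockdown, with mock library 1 below knockdown library 3, so these groups overlapped too.

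Levels were compared between genes only per length, on the deposited FPKM, in the mock libraries. MT-CO1 was the highest mRNA, at 3495 ± 387 FPKM (SD, n = 3), and was followed by MT-CO2 at 2309.5 ± 417 FPKM and MT-ND4L at 1673 ± 318 FPKM. The order went on with MT-ND4, MT-CO3, MT-ATP6, MT-ND5, MT-ND6, MT-CYB, MT-ND2 and MT-ND1, and ended with MT-ND3 at 215 ± 46.1 FPKM and MT-ATP8 at 125 ± 32.6 FPKM. The ranges of neighbours in this order were apart in 3 places, between MT-CO1 and MT-CO2, between MT-ND1 and MT-ND3, and between MT-ND3 and MT-ATP8. The highest mRNA was 28.0-fold above the lowest. MT-RNR2 lay between 2395 and 2655 FPKM and MT-RNR1 between 772 and 813 FPKM in mock.

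**Figure D4:**
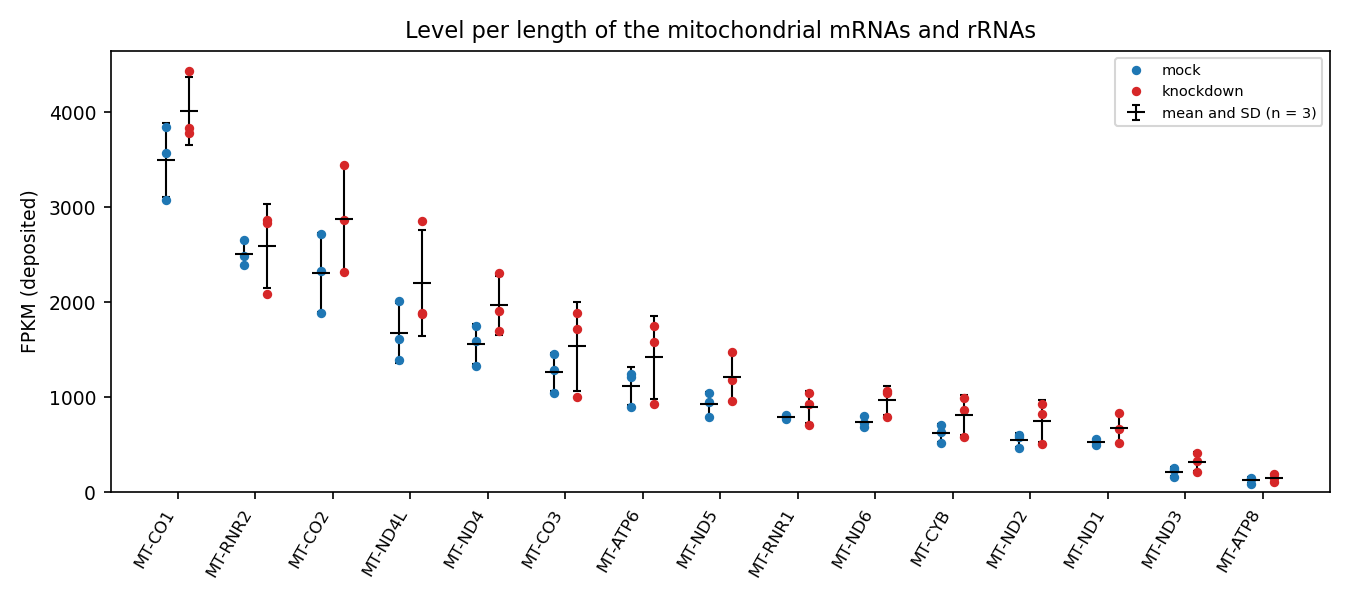
Deposited FPKM of the 13 mitochondrial mRNAs and 2 rRNAs in the mock and knockdown libraries, ordered by mean, with 1 point per library and bars at the mean ± SD (n = 3 per group). MT-CO1 is highest, at 3495 ± 387 FPKM in mock, and MT-ATP8 is lowest, at 125 ± 32.6 FPKM.

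The plot of levels per length also shows the 2 pairs that overlap by more than 1 base. Per base outside the overlap, 161 bases for MT-ATP8, its counts were 0.113 to 0.146 of those of MT-ATP6 per length over the 6 libraries, although both proteins are read from one mRNA. Per base outside the overlap, 290.0 bases for MT-ND4L, its counts were 1.01 to 1.26 of those of MT-ND4 per length. How the counting treated reads that cover 2 genes was not given in the sources used here, and its part in these ratios was not tested.

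Copies of mitochondrial genes in the nuclear genome are a further limit on counting. Of the 15 mRNA and rRNA genes, 7 had a nuclear copy in the annotation of at least 95% identity over at least 90% of their length, MT-ND2, MT-ND4, MT-ND6, MT-CO1, MT-CO2, MT-ATP6 and MT-ATP8. The closest copy of MT-CO1, MTCO1P12 on chromosome 1 with 98.7% identity, was at 243, 189.8 and 159.6 CPM in mock and at 203, 215 and 243 CPM in the knockdown (log2 fold change 0.16). The closest copy of MT-ND2, MTND2P28 on chromosome 1 with 98.4% identity, was at 44.8, 24.0 and 20.7 CPM in mock and at 34.4, 27.5 and 69.5 CPM in the knockdown (0.56). The other close copies had at most 28 counts in a library, the highest of them MTATP6P1. Of 405 annotated genes named as mitochondrial copies, 9 were tested. Of these, 0 passed in edgeR's quasi-likelihood test, 0 at an unadjusted p of 0.05 and 0 in DESeq2. The shares of all genes were 0.0231%, 15% and 3.46%. The groups did not overlap for 1 of the 9, lower in the knockdown, beside 19.7% of all genes in either direction. With 9 genes, these counts are no result about the copies. Reads of the copies and of the mitochondrial genes cannot be told apart by these counts.

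The 22 tRNA genes are 59 to 75 bases long, and kits made for mRNA are known to recover few fragments this short. They took 0.0172%, 0.0153% and 0.0143% of all counts in mock libraries 1, 2 and 3 and 0.0183%, 0.0176% and 0.0229% in knockdown libraries 1, 2 and 3, with a widest Wilson 95% interval of 0.00109 percentage points. On these shares the knockdown libraries lay above the mock libraries, but the intervals of knockdown library 2 and mock library 1 overlapped. On TMM-scaled libraries the summed tRNAs were at 178, 151 and 146 CPM in mock and at 174, 176 and 229.97 CPM in the knockdown, so the groups overlapped on that scale. Relative to the summed mRNA counts, the log2 ratio of tRNA counts was -6.64, -6.69 and -6.52 in mock and -6.68, -6.48 and -6.60 in the knockdown, so the groups overlapped and their means differed by 0.03. That difference was -0.02 without knockdown library 2, near 0 (-0.0043) without mock library 2 and 0.08 without knockdown library 1 or mock library 3, so no direction is given for it. The median log2 fold change of the 17 tested tRNAs was 0.37, with a range from -0.45 to 0.97, and 13 of them were above 0. The median was 0.40 without knockdown library 2, 0.17 without knockdown library 3 and 0.20 without mock library 3. Each of these fits tested 18 tRNAs rather than 17.

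MT-TP, MT-TC and MT-TN, whose sequences stand above, together held 80.0% to 87.0% of the tRNA counts in each library, and the 8 minus-strand tRNAs held 84.7% to 90.2%, with a widest Wilson 95% interval of 2.04 percentage points on the latter. MT-TP was at 63.4, 51.9 and 51.8 CPM in mock and at 49.9, 75.1 and 73.1 CPM in the knockdown (log2 fold change 0.24, SE 0.17, adjusted p = 0.537 in edgeR's test). Knockdown library 1 was its lowest library and knockdown libraries 2 and 3 its highest, the order of the rRNAs. MT-TC was at 41.7, 38.5 and 37.4 CPM in mock and at 56.4, 37.1 and 58.6 CPM in the knockdown (0.37, SE 0.17, adjusted p = 0.352), with knockdown libraries 1 and 3 above the mock libraries. MT-TN was at 42.7, 34.2 and 37.8 CPM in mock and at 33.0, 38.2 and 60.8 CPM in the knockdown (0.20, SE 0.21, adjusted p = 0.685), so 2 neighbouring tRNA genes had different library orders. As for MT-ND6, counts of these minus-strand genes cannot be told apart from reads of the opposite strand.

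On the genome, MT-TN and MT-TC flank a stretch of 31 unannotated bases, and MT-TP is the last annotated gene before the control region. The other 5 minus-strand tRNAs did not share their level. MT-TY, which lies next to MT-TC, had 107 to 226 counts in a library, MT-TE 12 to 33, and MT-TA, MT-TQ and MT-TS1 at most 17. MT-TF, for phenylalanine, the first annotated gene after the control region on the plus strand, had 0 to 6 counts. Of the 22 tRNA genes, 18 adjoin or overlap another gene, and reads of unprocessed precursors cannot be told apart from reads of tRNAs in these counts.

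**Figure D5:**
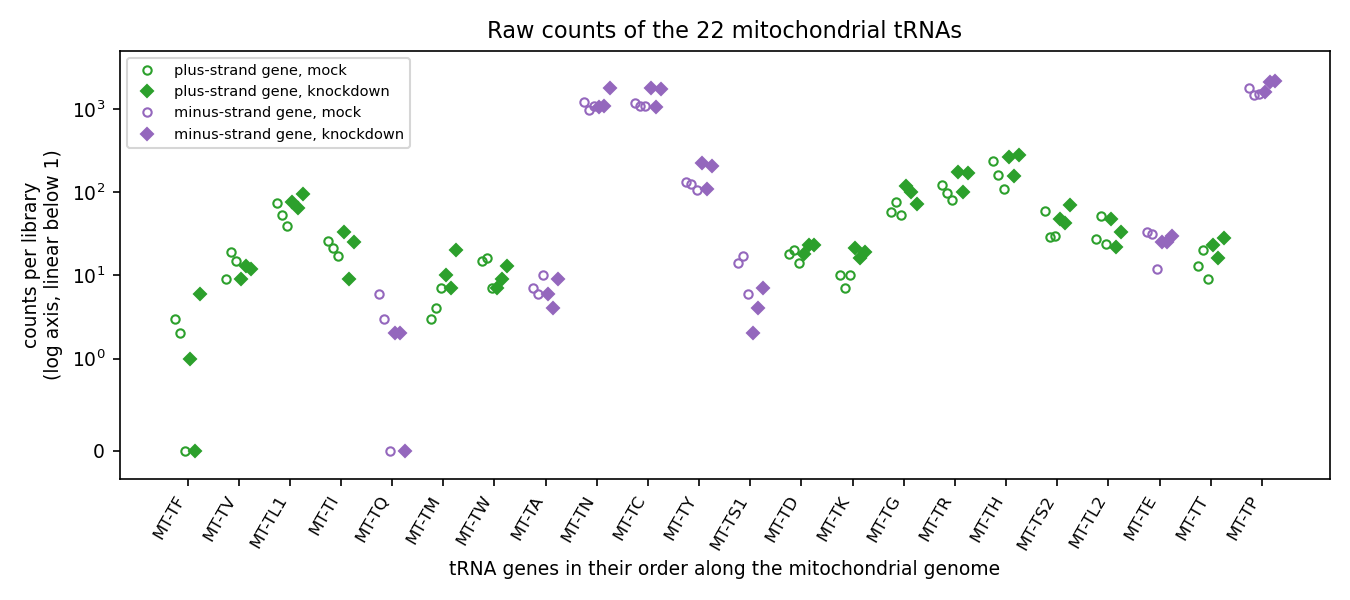
Raw counts per library of the 22 mitochondrial tRNAs in their order along the genome (log axis, linear below 1), for plus-strand and minus-strand genes, in mock (open circles) and knockdown libraries (filled diamonds). MT-TN, MT-TC and MT-TP lie near or above 1000 counts, and 14 of the 22 have a mean below 50 counts.

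The plot of tRNA counts shows how few reads the other tRNAs had. Of the plus-strand tRNAs, MT-TH, MT-TR, MT-TG and MT-TL1 reached a mean of 50 counts, and the groups overlapped for each of them. MT-TH, for histidine, was at 8.37, 5.65 and 3.81 CPM in mock and at 8.21, 5.58 and 9.32 CPM in the knockdown (log2 fold change 0.38, SE 0.29, adjusted p = 0.571 in edgeR's test). MT-TR, for arginine, was at 4.33, 3.46 and 2.77 CPM in mock and at 5.45, 3.53 and 5.78 CPM in the knockdown (0.49, SE 0.25, adjusted p = 0.388). For both, knockdown library 3 was highest and mock library 3 lowest, as for the mRNAs.

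MT-TG, for glycine, was at 2.04, 2.72 and 1.83 CPM in mock and at 3.76, 3.57 and 2.42 CPM in the knockdown (log2 fold change 0.56, SE 0.25, adjusted p = 0.330 in edgeR's test). MT-TL1, a leucine tRNA, was at 2.57, 1.87 and 1.35 CPM in mock and at 2.38, 2.30 and 3.16 CPM in the knockdown (0.44, SE 0.28, adjusted p = 0.485). MT-TY on the minus strand was at 4.71, 4.38 and 3.70 CPM in mock and at 7.08, 3.89 and 6.86 CPM in the knockdown (0.48, SE 0.24, adjusted p = 0.388). MT-TG differed from the other tRNAs named here in that knockdown library 3 was its lowest knockdown library, and MT-TY had knockdown libraries 1 and 3 above the mock libraries.

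MT-TK, the tRNA for lysine, lies after a gap of 25 bases behind MT-CO2 and was picked after its values were seen. It had 10, 7 and 10 counts in mock and 21, 16 and 19 in the knockdown, or 0.352, 0.247 and 0.346 CPM against 0.658, 0.565 and 0.639 CPM. All 3 knockdown libraries lay above the mock libraries, and edgeR's quasi-likelihood test gave a log2 fold change of 0.97 (SE 0.36, adjusted p = 0.250). MT-TK passed the filter on low counts through the knockdown libraries, where it was high. Its lack of overlap, its fold change and its p are therefore no support for a difference. The untested MT-TM, for methionine, had 3, 4 and 7 counts in mock and 10, 7 and 20 in the knockdown. The 5 untested tRNAs, MT-TF, MT-TQ, MT-TM, MT-TA and MT-TS1, had at most 20 counts in any library.

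Whether the libraries were made from RNA selected for poly(A) tails or depleted of rRNA was not given in the sources used here, and the labels name total RNA. Abundant nuclear RNAs without poly(A) tails were therefore read beside the rRNAs and tRNAs. Of 23 such RNAs, 10 had 0 counts in every library and 15 had at most 3 counts in every library. RN7SK, RMRP, RPPH1 and RN7SL1, which act in transcription control, RNA processing and protein targeting, were at 0 in all 6 libraries, which by counting error alone allows up to 0.106 CPM in a library and says nothing of reads left out because they map to several places. RN7SL2, another copy of the targeting RNA, picked after its values were seen, was at 37.9, 24.7 and 29.3 CPM in mock and at 115, 59.6 and 55.0 CPM in knockdown libraries 1, 2 and 3 (log2 fold change 1.32, adjusted p = 0.111 in edgeR's test and 0.000286 in DESeq2). Of the 3 such RNAs tested, 0 passed in edgeR's test over all libraries and 1 in DESeq2, beside 0.0231% and 3.46% of all genes. Without knockdown library 2, edgeR called 2 of them higher, beside 6.24% of all genes in that direction. The part of library preparation in the class shares was not tested.

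The genes that transcribe, process and translate the mitochondrial genome were read from the same fit. Of 52 tested genes for mitochondrial transcription and RNA processing, 0 passed the threshold in edgeR's quasi-likelihood test and 0 in DESeq2, and 3 were higher at an unadjusted p of 0.05, beside 8.14% of all genes. Of the 52, 42 had a log2 fold change above 0, beside 53.3% of all genes, with a median of 0.13. These genes share libraries too, so their signs are not separate observations. Without knockdown library 2, 9 passed in edgeR, all higher, beside 6.24% of all genes in that direction. POLRMT, the mitochondrial RNA polymerase, was at 69.8 ± 12.2 CPM (SD, n = 3) in mock and 61.6 ± 14.4 in the knockdown (log2 fold change -0.18, adjusted p = 0.691 in edgeR's test). TFAM, which packs mitochondrial DNA and opens its promoters, was at 56.96, 76.5 and 76.7 CPM in mock and at 90.3, 51.6 and 71.3 CPM in the knockdown (0.02, adjusted p = 0.973), so knockdown library 1 was highest and knockdown library 2 lowest.

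TFB2M, which melts the promoter, had a log2 fold change of 0.09 (adjusted p = 0.869 in edgeR's test), and TEFM, an elongation factor, had one of 0.03 (adjusted p = 0.961). LRPPRC, which stabilises mitochondrial mRNAs, was at 259 ± 15.3 CPM (SD, n = 3) in mock and 276 ± 22.1 in the knockdown (0.09, adjusted p = 0.761). Its partner SLIRP was at 69.6, 57.4 and 59.0 CPM in mock and at 103, 56.5 and 106 CPM in the knockdown (0.51, SE 0.22, adjusted p = 0.317). Knockdown libraries 1 and 3 were above all mock libraries for SLIRP and knockdown library 2 below them, the grouping seen for MT-CO3. PNPT1, an exoribonuclease that degrades mitochondrial RNA, had a log2 fold change of 0.21 (adjusted p = 0.670), and TWNK, the helicase that unwinds mitochondrial DNA for replication, had one of 0.25 (adjusted p = 0.645).

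The nuclear-encoded partners of the mitochondrial subunits were compared by complex. Of 79 such genes tested, 0 passed in edgeR's quasi-likelihood test and 0 in DESeq2. At an unadjusted p of 0.05 in edgeR's test, 4 were higher (8.14% of all genes). A log2 fold change above 0 was held by 61 (53.3% of all genes). Signs over genes of the same libraries are not separate observations, here as for the other lists. The median log2 fold change of the nuclear-encoded genes was 0.16 for complex I, 0.09 for complex III, 0.18 for complex IV and 0.15 for complex V. The mitochondrial mRNAs of the same complexes had medians of 0.34, 0.34, 0.23 and 0.26. Complex II, which has no mitochondrial subunit, had a median of 0.03 over 4 genes. Without knockdown library 2, 10 of the 79 passed in edgeR, all higher, beside 6.24% of all genes in that direction. Of 78 mitochondrial ribosomal protein genes, whose products bind the rRNAs, 0 passed in edgeR, 3 were higher and 2 lower at an unadjusted p of 0.05, beside 15% of all genes in either direction, and DESeq2 called 1, beside 3.46%. Their median log2 fold change was 0.13, and without knockdown library 2, 16 passed in edgeR as higher and 1 as lower, beside 13.8% of all genes in either direction and 6.24% as higher.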

How the data were processed

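Total RNA was turned into libraries with the NEBNext Ultra RNA kit for the Illumina NovaSeq, per the labels' protocols. The build GRCh38.p13 and the tools featureCounts 2.0.3, HISAT2 2.1.0, bcl2fastq 2.20 and DESeq2 are named in the submitters' processing notes. The handling of multi-mapping reads, the strand setting and the annotation release are not given in the sources used here. One deposited table holds raw counts and the other FPKM, for each gene and library, per the file headers. The deposited FPKM implied the GENCODE 29 exon length for 33609 of 34493 genes with a count, 97.4%, and for all 37 mitochondrial genes, so positions and sequences were taken from that release. The tables held 0 columns of other samples.

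Counts were tested in edgeR 4.0.16 in R 4.3.3 with filterByExpr, TMM scaling, the quasi-likelihood F test, knockdown against mock over all 6 libraries, and Benjamini-Hochberg adjustment over 17349 genes at a threshold of 0.05. The biological coefficient of variation was 17.6%. Each SE was taken as the size of the log2 fold change over the root of its F statistic. CPM uses TMM-scaled library sizes. DESeq2 1.42.0, other scalings, no filter, a replicate block and leaving out each library were alternatives. Medians, shares and ratios over several genes were described without a test.

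All mRNAs and rRNAs, tRNAs with a mean of at least 50 counts, CCNB1 and 8 genes of mitochondrial transcription and RNA handling were named by rule, as were markers and the nuclear copies with the most counts. MT-TK, MT-TM and RN7SL2 were named after their values were seen. The members and lists were chosen with earlier results of these data known. Nuclear copies were aligned base by base with each mRNA and rRNA. All pairs of libraries differed by more than sampling noise. Same-numbered libraries deviated from their group means with correlations of -0.19, 0.11 and 0.07, so the numbers were not taken to pair them. Python 3.11.15, numpy 2.4.6, pandas 2.3.3, scipy 1.17.1 and matplotlib 3.10.9 were used for tables and plots.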

Additional observations from a re-analysis of the deposited data

How the results depend on the processing

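The count of 0 mitochondrial transcripts past the threshold held in edgeR under DESeq2's size factors, library totals alone, scaling by nuclear genes, no filter and the replicate block, and in DESeq2. It ranged from 0 to 6 when each library was left out, with 6 without knockdown library 2. The count over all genes was 4 in edgeR, 2 with library totals alone, 568 in DESeq2 (175 higher and 393 lower), 1077 without a filter (404 higher and 673 lower), 162 with the replicate block (61 higher and 101 lower), and 1 to 2453 when each library was left out. Leaving out each library gave 0 to 9 genes of mitochondrial transcription and RNA processing and 0 to 10 nuclear-encoded subunits, and 1 such subunit passed without a filter. The numbers did not pair the libraries, and knockdown libraries 1, 2 and 3 correlated best with mock libraries 2, 2 and 1.

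The median log2 fold change of the mRNAs stayed above 0 under every alternative run. The mean share of counts differed by 0.38 percentage points, and by 1.24 on the deposited FPKM, which divides counts by gene length, and by 0.20 to 0.51 when each library was left out. The log2 fold change of MT-RNR2 turned to -0.0129 with DESeq2's size factors, -0.0263 in DESeq2, -0.0341 without a filter and -0.0154 with the block. That of MT-TE turned to -0.0147, -0.028 and -0.0353 under the first 3 of these, and that of MT-TI to 0.0337 with library totals alone. The cause was not tested. With each library left out, values ran from -0.086 to 0.1331 for MT-RNR2, -0.0026 to 0.2697 for MT-RNR1, -0.3813 to 0.3243 for MT-TI, -0.3746 to 0.3316 for MT-TL2, -0.3367 to 0.237 for MT-TE, -0.107 to 0.3501 for MT-TN and -0.0101 to 0.3955 for MT-ATP8. Under the alternatives that keep all libraries, 184 of 192 fold changes of single transcripts kept their sign and call. With 14 tRNAs below a mean of 50 counts, depth limits what can be said of single tRNAs.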
